A study of Homo sapiens with 12 samples.

Results

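The 10 genes described here belong to the Notch signalling pathway and were followed in KP4 cells given metformin, FK866, both or neither. They are the target genes HES1, HES4, HEY1 and NRARP, the receptors NOTCH1, NOTCH2 and NOTCH3, the ligands JAG1 and JAG2, and LFNG, a glycosyltransferase that modifies the receptors. They were taken by name from the 36601 genes of the table, and all 10 were among the 15376 genes tested. HES1 was singled out because it had already been called higher in cells given both drugs than in cells given metformin alone, so that comparison is given as a description for all 10 genes. The difference between the effects of FK866 without and with metformin, which uses the same libraries, is tested for the genes other than HES1. For HES1 itself, only FK866 against vehicle, which shares no library with that comparison, is read as a test, and its other differences are given as values. Its fit takes the spread between libraries from all 12, those of that comparison included, so the test is not fully independent of the choice.

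KP4 is an established human cell line that the labels describe as a pancreatic ductal cell carcinoma of genotype WT. The 12 libraries form 4 groups of 3, all made from cells treated for 24 h: DMSO (vehicle), Met (10 mM metformin), FK (5 nM FK866) and Met+FK (10 mM metformin with 5 nM FK866). Metformin is a complex I inhibitor of the respiratory chain. FK866 inhibits NAMPT, which turns nicotinamide into nicotinamide mononucleotide, from which another enzyme makes NAD. No source says whether the replicates came from separate cultures, so the p-values measure the spread between these libraries, which may be technical.

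In the Notch pathway, a ligand on one cell binds a receptor on its neighbour, which leads to cleavage of the receptor by an ADAM protease and then by γ-secretase. The released intracellular domain enters the nucleus, joins the DNA-binding protein RBPJ and a Mastermind coactivator, and switches on targets such as the HES and HEY repressors. In the pancreas the pathway is known for holding progenitors undifferentiated and for its activity in duct and centroacinar cells, and HES1 is also controlled by signals other than Notch.

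Total read pairs counted in genes ranged from 30667735 to 41052203 per library (median 34767231), and the least covered of the 10 genes, HEY1, still had at least 25 read pairs in every library. Of 10 ductal and epithelial markers, 7 had a mean of at least 10 normalized counts, whereas EPCAM was lower and CFTR was at 0 in all libraries. The summed level of these 10 markers was 25330 to 26270 in DMSO, 19380 to 22880 in FK, 16510 to 19690 in Met and 16240 to 19670 in Met+FK. KRT18 made up most of this sum (mean 18307 in DMSO and 10421 in Met), whereas CDH1 was higher in Met (61.4) and Met+FK (71.3) than in DMSO (28.5), and SOX9 was higher in Met (4444) and FK (4865) than in DMSO (3781). Mesenchymal markers, VIM above all, summed to 98540 to 125900 over the 12 libraries, and 5 acinar and 5 endocrine markers to at most 1.65 and 2.30. The 5 fibroblast markers, with DCN at 0 in all libraries, summed to 239.7 to 315.8 in FK, 139.9 to 202.6 in DMSO and 80.32 to 115.3 in the groups given metformin. COL1A1 made up most of that sum (means 145 in DMSO, 274 in FK, 65.3 in Met and 70.6 in Met+FK), and PDGFRB went the other way (16.0, 12.3, 27.7 and 35.9). The 4 immune markers summed to 925.3 to 1250 and the 3 endothelial markers to 21.95 to 56.27. The part of these marker differences in the results below was not tested. NRARP, NOTCH1, NOTCH2 and JAG1 overlap antisense genes whose mean normalized counts were at most 2.08, and whether reads were counted by strand is not given in the sources used here.

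The promoters of 3 target genes are shown because the results separate these targets from each other. Each line gives the 250 bases before the gene's start from RefSeq (GRCh38.p14), 5′ to 3′ on the gene's strand, with capitals marking GTGGGAA, the core of the sequence that RBPJ binds, and its shorter form TGGGAA. The windows are chr3:194135898-194136147 on the plus strand for HES1, chr1:1000098-1000347 on the minus strand for HES4 and chr9:137302272-137302521 on the minus strand for NRARP.
HES1: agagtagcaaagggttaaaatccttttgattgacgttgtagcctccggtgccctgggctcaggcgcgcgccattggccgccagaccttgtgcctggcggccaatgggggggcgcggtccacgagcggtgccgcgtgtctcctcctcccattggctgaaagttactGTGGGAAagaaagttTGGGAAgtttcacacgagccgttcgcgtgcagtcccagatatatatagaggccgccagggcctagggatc
HES4: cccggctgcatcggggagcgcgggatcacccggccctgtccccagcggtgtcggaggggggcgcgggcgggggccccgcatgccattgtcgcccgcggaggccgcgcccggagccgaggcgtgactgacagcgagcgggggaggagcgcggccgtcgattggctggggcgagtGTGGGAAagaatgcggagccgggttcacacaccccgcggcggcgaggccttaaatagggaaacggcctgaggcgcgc
NRARP: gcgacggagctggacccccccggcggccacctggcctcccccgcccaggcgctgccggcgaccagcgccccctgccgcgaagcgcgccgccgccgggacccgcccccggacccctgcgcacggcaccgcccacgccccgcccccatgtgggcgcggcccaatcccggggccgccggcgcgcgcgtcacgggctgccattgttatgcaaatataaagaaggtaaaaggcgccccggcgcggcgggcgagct

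The HES1 window held GTGGGAA from 85 to 79 bases upstream of the start and a further TGGGAA from 70 to 65. The HES4 window held GTGGGAA from 77 to 71 bases upstream, and the deposited gene model of HES4 reaches into this window. Around these GTGGGAA matches the HES1 and HES4 promoters shared the run tgtgggaaagaa, which contains the match. It was picked as the longest run that these windows shared. Its presence in 6 of 35116 promoter windows, those of HES1 and HES4 included, is a description and not a test. The NRARP window, which also lies before a well-known Notch target, held neither form, and that says only that these letters were not in this window. The motif search covered 9 of the genes described here (10 windows) and left out HEY1. Of these 9 genes, HES1 and HES4 held GTGGGAA on either strand, as did 5.43% of all 35116 windows. TGGGAA, which every GTGGGAA contains, was found in HES1, HES4 and LFNG and in 20.8% of all windows. CACNAG, the N-box bound by HES repressors, was found in HES1, LFNG and NOTCH3 and in 32% of all windows, and TGACGTCA, the cAMP response element, was found in none of these 9 genes and in 1.65% of all windows.

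HES1 (ENSG00000114315, chromosome 3, 194136148 to 194138732), a transcriptional repressor, was higher in both groups that received FK866. Its normalized read count, the read pairs of the gene scaled to make the libraries comparable, was 1214, 1172 and 1361 in DMSO and 1908, 1936 and 1971 in FK. In Met it was 1074, 1208 and 1237, and in Met+FK it was 1679, 1817 and 1889. Every library with FK866 was above every library without it, and DMSO and Met overlapped. The group means were 1249 ± 98.8 in DMSO, 1173 ± 86.5 in Met, 1938 ± 31.3 in FK and 1795 ± 107 in Met+FK (SD, n = 3).

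From DMSO to FK, HES1 rose 1.55-fold, or by 0.64 in log2 units (95% interval 0.46 to 0.82, standard error 0.084). Its adjusted p, by limma-trend with the Benjamini-Hochberg method over all genes tested, was 0.000783. A gene was called when its adjusted p was under 0.05 and its fold change was over 1.5, which 2.73% of all genes met in the higher and 0.754% in the lower direction in this comparison. Leaving out any of the 6 libraries compared kept the HES1 call, with log2 fold changes between 0.59 and 0.70. A fit to those 6 libraries alone also called HES1 higher, where 89 of all 15376 genes were called higher and 23 lower. As a description, HES1 was 1.53-fold higher in Met+FK than in Met (log2 difference 0.61, standard error 0.084), the comparison it was selected on. That difference was 0.55 to 0.66 with 1 library left out, and 0.57, under 1.5-fold, with all libraries scaled to the same total. The HES1 call in that comparison was kept in 2 of 6 fits that left out 1 of the libraries compared. It was lost without Met replicate 1, Met replicate 2, Met+FK replicate 2 or Met+FK replicate 3. The highest adjusted p of these limma-trend fits was 0.0942. The next largest upward difference of the 10 genes in that comparison was that of HES4, at 1.22-fold, and the largest downward difference was that of LFNG, at −0.47 in log2 units. In that comparison 0.0520% of all genes were called higher and 0.00650% lower.

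**Figure D1:**
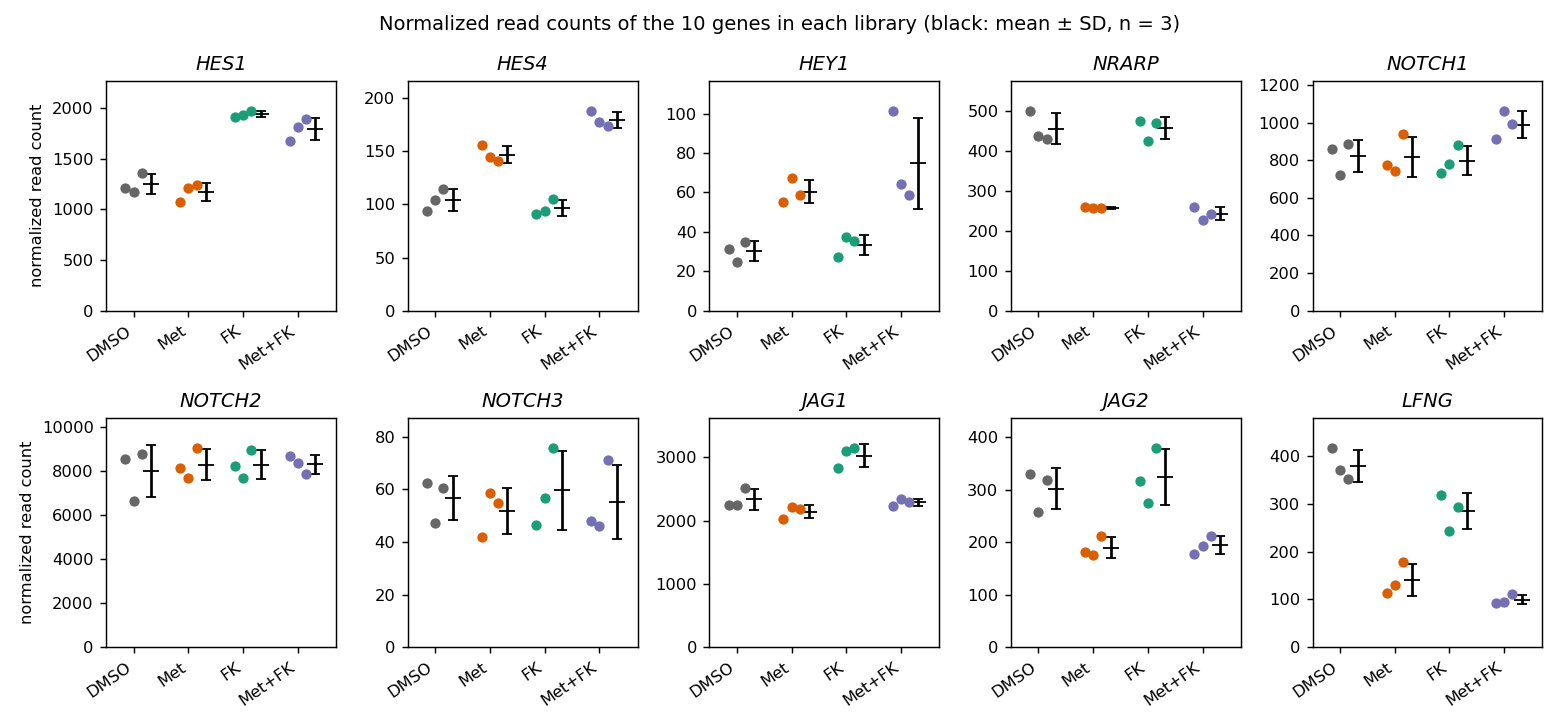
Normalized read count (vertical axes, each starting at 0) of each of the 10 genes in the 12 libraries, with 3 points per group for DMSO, Met, FK and Met+FK, and the mean ± SD (n = 3) in black beside them. HES1 lies at 1679 or above in every library with FK866 and at 1361 or below in every other, whereas NRARP, JAG2 and LFNG are lower, and HES4 and HEY1 higher, in the libraries with metformin.

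The 3 other targets moved with metformin instead, and not all in the same direction. HES4 (ENSG00000188290, chromosome 1, 998962 to 1000172), a repressor of the same family as HES1, had 93.5, 104 and 115 normalized counts in DMSO and 90.6, 93.8 and 106 in FK. It had 156, 145 and 141 in Met and 188, 178 and 174 in Met+FK. All 6 libraries with metformin were above all 6 without it, and the Met+FK libraries were above the Met libraries. From DMSO to Met HES4 rose by 0.50 in log2 units (standard error 0.12, adjusted p = 0.00361), which is below 1.5-fold. From FK to Met+FK HES4 rose by 0.89 (standard error 0.12, adjusted p = 4.15e-05), and from DMSO to Met+FK by 0.79 (adjusted p = 9.39e-05). HES4 has the most GC-rich transcript of the 10 genes (73.8% GC), and libraries differed in how their counts moved with GC content. The slope of log2 count per 10 percentage points of GC was 0.0429 to 0.196 in DMSO, −0.245 to 0.00266 in FK, −0.139 to 0.0801 in Met and −0.0481 to 0.0631 in Met+FK. With this trend and that of length removed, the log2 fold change of HES4 from DMSO to Met was 0.74 and that from FK to Met+FK was 0.75.

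NRARP (ENSG00000198435, chromosome 9, 137299631 to 137302271), an ankyrin-repeat protein induced by Notch that in turn dampens it, fell with metformin. Its normalized counts were 501, 437 and 432 in DMSO and 476, 426 and 471 in FK. They were 260, 257 and 257 in Met and 259, 228 and 242 in Met+FK. Every library with metformin was below every library without it, and DMSO overlapped FK as Met overlapped Met+FK. From DMSO to Met, NRARP was 1.76-fold lower (log2 fold change −0.82, standard error 0.098, adjusted p = 1.02e-05), and from FK to Met+FK 1.88-fold lower (log2 fold change −0.91, adjusted p = 3.73e-06). FK866 alone left NRARP at a log2 fold change of 0.00 (95% interval −0.20 to 0.21). With the GC and length trend removed, that value was 0.23 (adjusted p = 0.129 from limma-trend).

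HEY1 (ENSG00000164683, chromosome 8, 79764010 to 79767857), a repressor related to the HES proteins, was a low-count gene that rose with metformin. It had 31.2, 24.6 and 34.8 normalized counts in DMSO and 27.4, 37.2 and 35.6 in FK. It had 55.4, 67.1 and 58.8 in Met and 101, 64.2 and 58.5 in Met+FK. The groups with and without metformin did not overlap, and Met+FK replicate 1 stood above the other 2 libraries of its group. HEY1 was 1.98-fold higher in Met than in DMSO (log2 fold change 0.99, standard error 0.22, adjusted p = 0.00191). It was 2.16-fold higher in Met+FK than in FK (log2 fold change 1.11, adjusted p = 0.00101), and the log2 fold change was 0.87 without Met+FK replicate 1. FK866 alone gave a log2 fold change of 0.14 (95% interval −0.33 to 0.62).

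The receptors, which carry the signal into the cell, were not called in any comparison. NOTCH2 (ENSG00000134250, chromosome 1, 119911553 to 120100779) had 8546, 6638 and 8785 normalized counts in DMSO and 8151, 7667 and 9055 in Met. It had 8233, 7659 and 8962 in FK and 8665, 8360 and 7853 in Met+FK. All 4 groups overlapped, and the 95% interval of the log2 fold change was −0.16 to 0.28 for Met against DMSO and likewise for FK against DMSO. Reads of NOTCH2 may be shared with its partial copies, of which NOTCH2NLA, NOTCH2NLB and NOTCH2NLC had mean normalized counts of 7.0, 3.08 and 68.1. The level of NOTCH2 is uncertain for that reason, by an amount that these counts do not give.

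NOTCH1 (ENSG00000148400, chromosome 9, 136494433 to 136546048) had 862, 723 and 885 normalized counts in DMSO, 778, 742 and 940 in Met and 735, 780 and 883 in FK, and these groups overlapped. In Met+FK it had 916, 1063 and 994, above every DMSO and FK library but overlapping Met. From FK to Met+FK its log2 fold change was 0.31 (95% interval 0.07 to 0.55, adjusted p = 0.0374), below 1.5-fold, and the adjusted p stayed under 0.05 in 2 of 6 fits that left out 1 library, those without FK replicate 3 or Met+FK replicate 1. With the GC and length trend removed it was 0.15 (adjusted p = 0.0737). NOTCH3 (ENSG00000074181, chromosome 19, 15159038 to 15200995) ranged from 41.8 to 75.8 normalized counts over the 12 libraries, and all its groups overlapped. The 95% intervals for NOTCH3 were wide, from −0.61 to 0.35 for Met against DMSO and from −0.43 to 0.53 for FK against DMSO.

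The ligands JAG1 and JAG2 are membrane proteins that bind Notch receptors on the neighbouring cell. JAG1 was highest with FK866 alone, and JAG2 was lower in both groups given metformin. JAG1 (ENSG00000101384, chromosome 20, 10637684 to 10673999) had 2245, 2240 and 2523 normalized counts in DMSO and 2825, 3107 and 3152 in FK. It had 2030, 2213 and 2183 in Met and 2237, 2345 and 2290 in Met+FK. The 3 FK libraries were above all others. JAG1 rose by 0.38 in log2 units from DMSO to FK (standard error 0.076, adjusted p = 0.0136), below 1.5-fold, and the adjusted p was under 0.05 in 5 of 6 fits that left out 1 library, the exception being the fit without DMSO replicate 1 (adjusted p = 0.0764). JAG1 was lower in Met+FK than in FK with −0.40 in log2 units (standard error 0.076, adjusted p = 0.000645), also below 1.5-fold.

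JAG2 (ENSG00000184916, chromosome 14, 105140982 to 105168824) had 329, 257 and 319 normalized counts in DMSO and 316, 275 and 380 in FK. It had 182, 175 and 212 in Met and 178, 193 and 213 in Met+FK. The 6 libraries with metformin were all below the 6 without it. JAG2 was 1.58-fold lower in Met than in DMSO (log2 fold change −0.66, standard error 0.14, adjusted p = 0.00116) and 1.65-fold lower in Met+FK than in FK (log2 fold change −0.72, adjusted p = 0.000747). The difference between Met and DMSO stood close to the 1.5-fold threshold, and was −0.54 with all libraries scaled to the same total and −0.50 with the GC and length trend removed, both under it. In Met+FK against DMSO the log2 fold change of JAG2 was −0.63 (adjusted p = 0.00164), and 3 of the 6 fits that left out 1 library (without DMSO replicate 1, DMSO replicate 3 or Met+FK replicate 1) put it under 1.5-fold, at −0.56 at the nearest to 0.

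LFNG (ENSG00000106003, chromosome 7, 2512529 to 2529177), the Golgi enzyme lunatic fringe that extends sugars on the receptor and so alters which ligands it responds to, had the largest log2 fold change of the 10 genes in each of the 4 comparisons of a group with metformin against one without it. Its normalized counts were 418, 370 and 353 in DMSO and 318, 244 and 294 in FK. They were 113, 131 and 179 in Met and 93.0, 94.7 and 111 in Met+FK. The 4 groups formed a descending order from DMSO to FK, Met and Met+FK in which no neighbouring groups overlapped. LFNG was 2.73-fold lower in Met than in DMSO (log2 fold change −1.45, standard error 0.16, adjusted p = 4.74e-06). It was 3.79-fold lower in Met+FK than in DMSO (log2 fold change −1.92, adjusted p = 2.07e-07) and 2.84-fold lower than in FK (adjusted p = 3.29e-06). Between DMSO and FK the LFNG values differed by −0.42 in log2 units (standard error 0.16, adjusted p = 0.0675), which did not pass the test. With the replicate number as a block, that adjusted p was 0.0279, and with the GC and length trend removed the log2 fold change was −0.17 (adjusted p = 0.374).

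**Figure D2:**
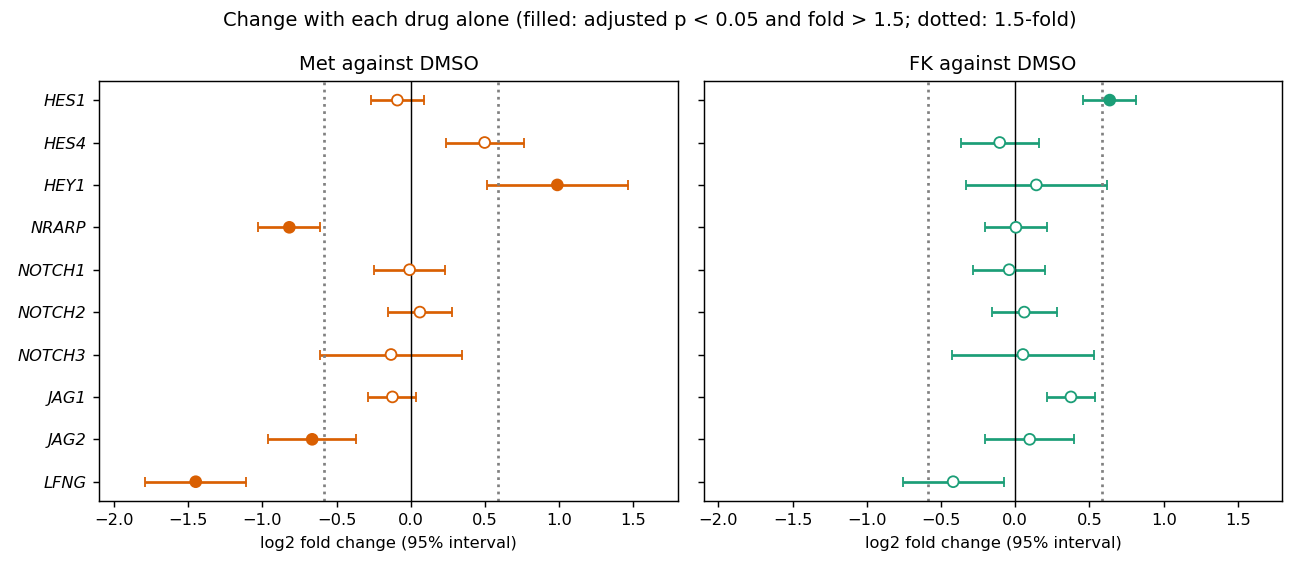
Log2 fold change (horizontal axes) of the 10 genes for Met against DMSO (left) and FK against DMSO (right), with 95% intervals, filled points for called genes and dotted lines at 1.5-fold. With metformin, HEY1 is called higher and NRARP, JAG2 and LFNG lower, and with FK866, HES1 is the 1 gene called.

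Counted over the 10 genes, Met against DMSO had 1 called higher (HEY1) and 3 called lower (NRARP, JAG2 and LFNG), where 12.8% of all genes were called higher and 10.2% lower. Their median log2 fold change was −0.11, beside 0.01 for all genes tested. FK against DMSO had 1 called higher (HES1) and 0 called lower by limma-trend, edgeR and DESeq2. Limma-trend called 2.73% of all genes higher and 0.754% lower there. In that comparison 3 of the 10 genes had an unadjusted p under 0.05 in limma-trend, as did 6488 of all 15376 genes. The third after HES1 and JAG1 was LFNG, and the median of the 10 genes was 0.06 beside −0.02 for all genes. Both comparisons share the DMSO libraries. Met+FK against DMSO had 2 called higher (HES4 and HEY1) and 3 lower (NRARP, JAG2 and LFNG), with 13.7% of all genes called higher and 11.3% lower. Met+FK against FK had the same 2 called higher and the same 3 lower, with 9.27% and 9.29% of all genes called. These 5 genes moved in the same direction whether metformin was added to vehicle or to FK866, although HES4 stayed under 1.5-fold in the former. A lower normalized count in these bulk libraries cannot tell fewer cells expressing a gene from less of its RNA per cell.

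The single drugs were also compared with each other. HES4 and HEY1 were called higher in Met than in FK (log2 fold changes 0.60 and 0.85, adjusted p = 0.00141 and 0.00782), where 8.08% of all genes were called higher. NRARP, JAG2 and LFNG were called lower, with log2 fold changes of −0.82, −0.76 and −1.03, where 7.03% of all genes were called lower. JAG1 was lower in Met than in FK as well, by a log2 fold change of −0.50 (adjusted p = 0.00013), which is below 1.5-fold. HES1, as a description, was 1.65-fold lower in Met than in FK. The call of HES4 rested on a value just past 1.5-fold, and 3 of the 6 fits that left out 1 library (without Met replicate 1, FK replicate 1 or FK replicate 2) put it under the threshold, at a log2 fold change of 0.56 at the lowest.

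The design also asks whether FK866 acted in the same way without and with metformin. As a description, HES1 had a log2 difference of 0.64 without metformin and 0.61 with it. LFNG had −0.42 and −0.47, a difference of −0.06 (95% interval −0.54 to 0.43). JAG1 had 0.38 without metformin and 0.10 with it. That difference of −0.28 (95% interval −0.51 to −0.05) did not pass the test (adjusted p = 0.121 from limma-trend), and had an adjusted p of 0.0234 with the replicate number as a block, a fit in which 4914 of all 15376 genes passed. HES4 had −0.10 without metformin and 0.29 with it, a difference of 0.39 (95% interval 0.02 to 0.77, adjusted p = 0.146) that was 0.0024 once the GC and length trend was removed. With that trend removed, the difference was −0.36 for LFNG (95% interval −0.71 to −0.01, adjusted p = 0.308), −0.36 for NRARP (adjusted p = 0.209), −0.33 for JAG2 (adjusted p = 0.255) and −0.31 for JAG1 (adjusted p = 0.120). All 4 had an unadjusted p under 0.05 in that fit, as did 15.4% of all genes. HES1, as a description, had 0.77 without metformin and 0.61 with it in that fit, a difference of −0.15 (95% interval −0.38 to 0.07). Of the 9 genes other than HES1, 0 passed the test of this difference in limma-trend, edgeR or DESeq2, which 0.0585%, 0.0650% and 4.52% of all genes passed. HES4 and JAG1 had an unadjusted p under 0.05 in limma-trend, as did 30.5% of all genes.

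**Figure D3:**
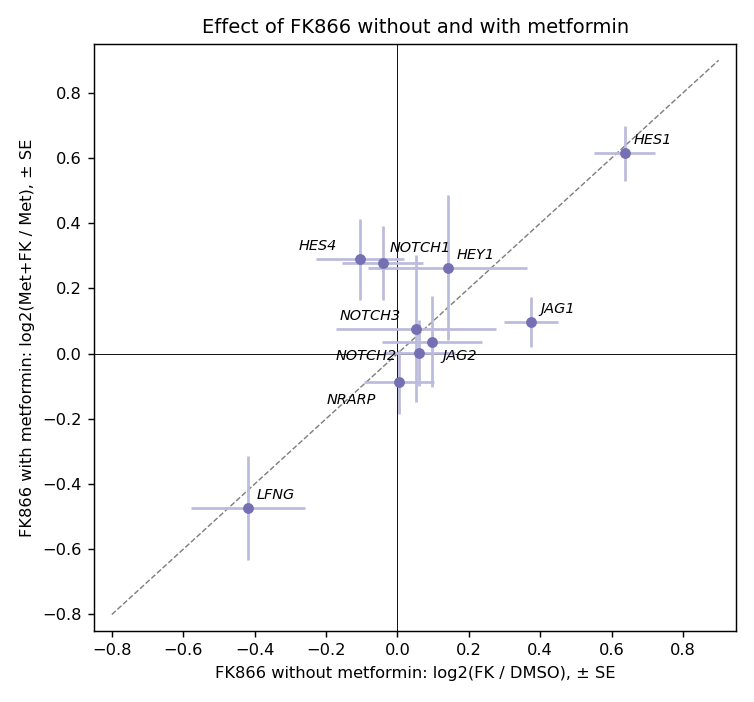
Log2 difference made by FK866 without metformin (horizontal axis, FK against DMSO) and with metformin (vertical axis, Met+FK against Met) for the 10 genes, ± SE, with a dashed line where both are equal. HES1 (0.64 and 0.61) and LFNG (−0.42 and −0.47) lie near the line, JAG1 (0.38 and 0.10) lies below it, and HES4 (−0.10 and 0.29) above it.

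Levels of different genes were compared as normalized counts per kilobase of the Ensembl canonical transcript. In DMSO, HES1 (793 ± 62.7) and NOTCH2 (699 ± 103) were the highest of the 10 genes and overlapped (SD, n = 3). JAG1 followed at 393 ± 27.3 per kilobase, then NRARP at 173 ± 14.5 and LFNG at 156 ± 13.7, which overlapped each other. HES4 (118 ± 11.9), NOTCH1 (86.1 ± 9.15), JAG2 (52.3 ± 6.74), HEY1 (13.7 ± 2.34) and NOTCH3 (6.53 ± 0.941) came next without overlap. In FK, HES1 stood alone at the top, at 1231 ± 19.9 per kilobase against 725 ± 57.2 for NOTCH2. In Met, HES4 was the fourth highest at 166 ± 8.67, above NRARP at 97.7 ± 0.746 and LFNG at 57.6 ± 13.9. In Met+FK the distance was wider, with HES4 at 203 ± 8.42 per kilobase, NRARP at 92.1 ± 5.90 and LFNG at 40.8 ± 4.11. NOTCH3 was the lowest in every group.

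**Figure D4:**
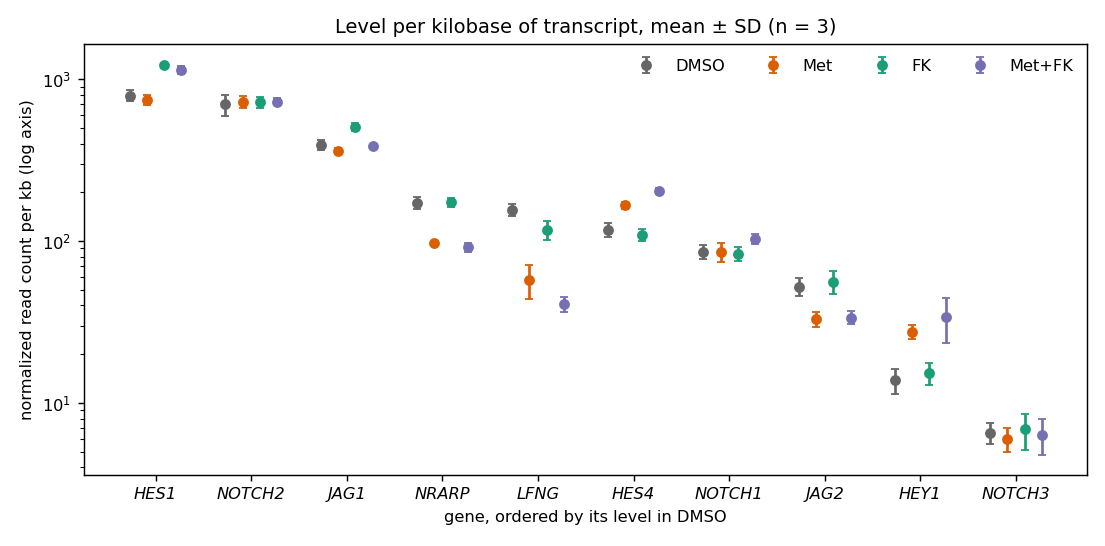
Normalized read count per kilobase of transcript (vertical log axis) of the 10 genes, ordered by their level in DMSO, as mean ± SD of 3 libraries for each group. HES1 and NOTCH2 lie at the top in DMSO, HES1 alone in FK and Met+FK, and HES4 is above NRARP and LFNG in Met and Met+FK but below them in DMSO.

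The genes whose log2 normalized counts followed HES1 most closely over the 12 libraries, among 11521 genes with a mean of at least 100, were TSC22D1 (Pearson r 0.96), IRF2BPL (0.95), CIITA (0.93), TXNIP (0.92), SSH1 (0.89), VEGFA (0.89), QRSL1 (0.88) and DLX2 (0.88). These values share libraries and normalization with HES1 and are a description. TXNIP, a thioredoxin-binding arrestin, for example had 745 ± 74.7 normalized counts in DMSO, 829 ± 76.5 in Met, 1496 ± 44.6 in FK and 1266 ± 71.2 in Met+FK (SD, n = 3). Of the other 9 Notch genes, JAG1 was the most alike, with r = 0.73, and the remaining 8 lay between −0.10 (LFNG) and 0.35 (NOTCH1). The other targets HES4, HEY1 and NRARP had r = −0.03, 0.03 and 0.10 with HES1.

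A list of 55 other genes of the pathway was examined in the same fit, of which 49 were tested. NOTCH4, DLL3, HES3, HES5, HEY2 and HELT were below the mean of 10 normalized counts. From DMSO to Met, 5 were called higher and 1 lower (10.2% and 2.04% of the list, beside 12.8% and 10.2% of all genes), and the median log2 fold change of the 49 was 0.05 beside 0.01 for all genes. The largest rises were those of ADAM17, NEURL1 and MAML3. ADAM17, a protease that can make the outer receptor cut, went from 2146 ± 102 to 4603 ± 473 normalized counts (SD, n = 3, log2 fold change 1.10, adjusted p = 5.96e-07). NEURL1, a ubiquitin ligase related to Drosophila Neuralized, which acts on ligands, went from 145 ± 8.88 to 283 ± 52.9 (log2 fold change 0.95, adjusted p = 7.56e-05). MAML3, a Mastermind coactivator, went from 336 ± 20.1 to 614 ± 49.0 (log2 fold change 0.87, adjusted p = 4.97e-05). The gene called lower was NEURL1B, a relative of NEURL1, which went from 886 ± 122 to 377 ± 55.2 (log2 fold change −1.23, adjusted p = 1.94e-06). HEYL, a HEY family repressor, and APH1B, a γ-secretase subunit, were the other 2 called higher, at log2 fold changes of 0.68 and 0.60, and are named because the count is small. APH1B lost the call without DMSO replicate 2, DMSO replicate 3 or Met replicate 2 (0.54 at the lowest), and its log2 fold change was 0.42 with the GC and length trend removed.

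ADAM17, NEURL1, MAML3 and HEYL were also called higher, and NEURL1B lower, in Met+FK against FK. In that comparison 6 genes of the list were called higher and 3 lower (12.2% and 6.12%, beside 9.27% and 9.29% of all genes). In Met+FK against DMSO 6 were called higher and 2 lower (12.2% and 4.08%, beside 13.7% and 11.3% of all genes). With FK866 alone, DLL1, a ligand of the Delta type, was the 1 gene of the list called, where 2.73% of all genes were called higher. It is named because the count is 1, and it was chosen after its values were seen. It had 22.8 ± 8.93 normalized counts in DMSO and 40.0 ± 4.17 in FK (SD, n = 3), without overlap (log2 fold change 0.86, adjusted p = 0.0374), and it lost the call in each of the 6 fits that left out 1 library. In Met+FK against Met the log2 differences of the list ran from −0.21 to 0.62.

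Among the core components named whatever they did, RBPJ had 2869 ± 424 normalized counts in DMSO, 3415 ± 468 in Met, 3738 ± 730 in FK and 3220 ± 226 in Met+FK (SD, n = 3). The groups overlapped, and its log2 fold changes from DMSO did not pass the test with metformin (0.25, adjusted p = 0.132) or FK866 (0.37, adjusted p = 0.0584). ADAM10, the main protease of the outer cut, had log2 fold changes of 0.44 with metformin (adjusted p = 0.0460) and 0.48 with FK866 (adjusted p = 0.0589), also with overlapping groups. The transcripts of RBPJ and ADAM10 have 37.2% and 37.5% GC. Both genes were highest in FK replicate 2 (4546 and 2006 normalized counts), the library with the lowest GC slope (−0.245). The part of GC content in their log2 fold changes was not tested. NCSTN, a γ-secretase subunit, had a log2 fold change of 0.03 with metformin (adjusted p = 0.814). The coactivator MAML1 changed by −0.33 with metformin (adjusted p = 0.00914), below 1.5-fold, and had a log2 fold change of −0.07 with FK866 (adjusted p = 0.617).

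For the difference between the effects of FK866 without and with metformin, 0 of the 49 genes passed limma-trend or edgeR, 18 (36.7%, beside 30.5% of all genes) had an unadjusted p under 0.05 in limma-trend, and DESeq2 passed DVL1 and KAT2B (4.08%, beside 4.52% of all genes). With the replicate number as a block, 17 passed (34.7%, beside 4914 of all 15376 genes). With the GC and length trend also removed, 0 passed, beside 2.92% of all genes, and 8 (16.3%, beside 20.7% of all genes) had an unadjusted p under 0.05. Without FK replicate 1, 5 of the 49 passed, beside 1845 of all 15376 genes.

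**Figure D5:**
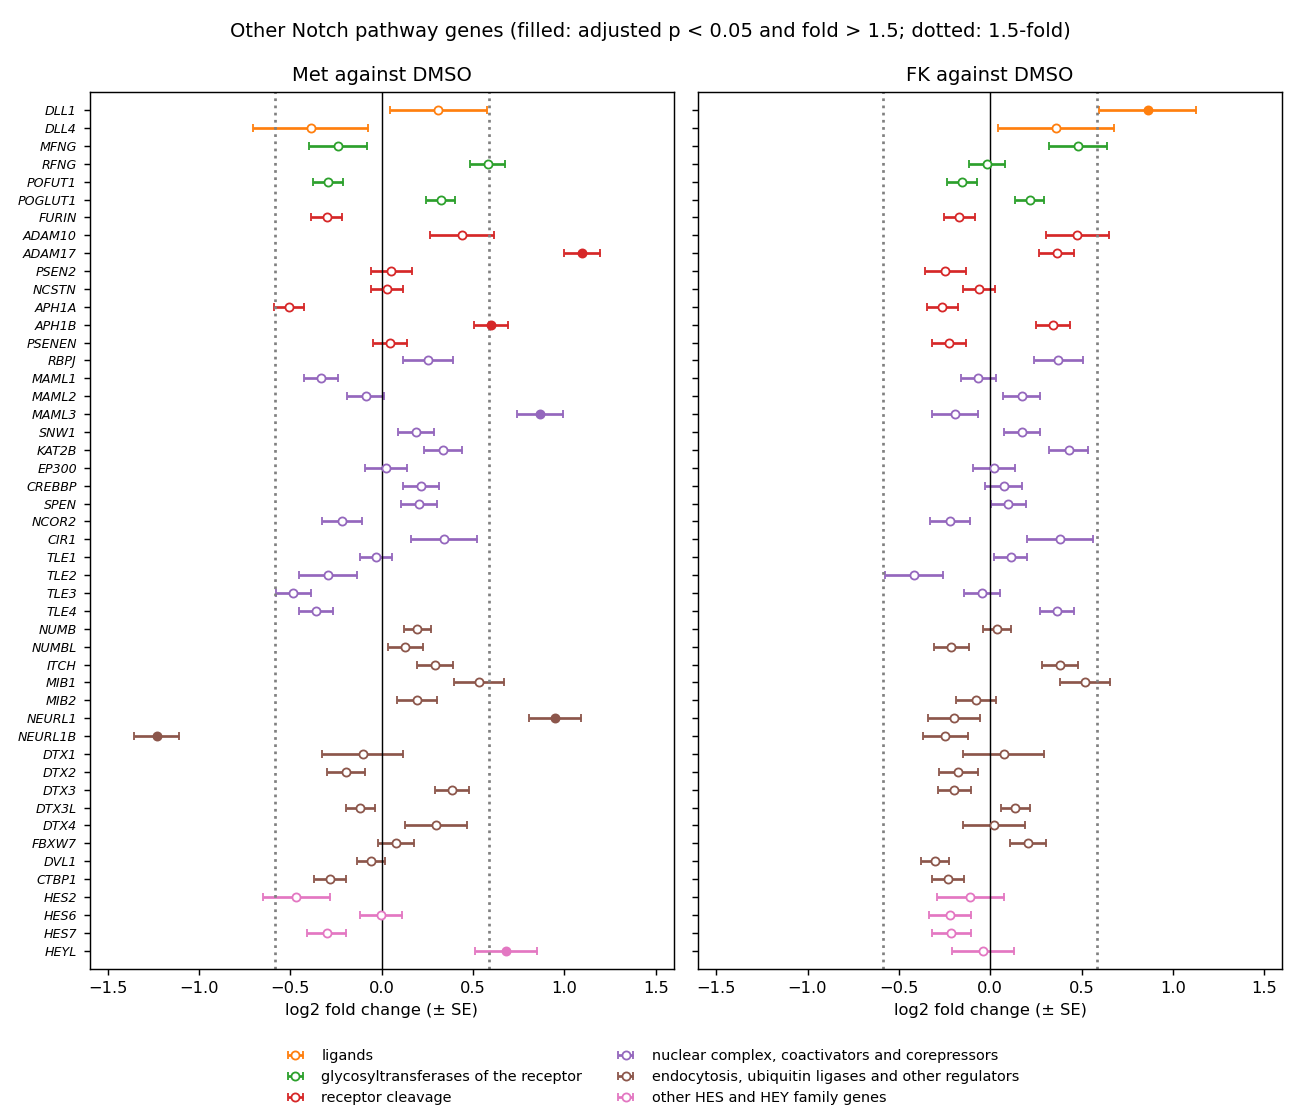
Log2 fold change ± SE (horizontal axes) of 48 of the 49 tested genes of the pathway list, coloured by role, for Met against DMSO (left) and FK against DMSO (right), with filled points for called genes and dotted lines at 1.5-fold. With metformin, 5 genes lie filled on the right (ADAM17 at 1.10 the farthest) and NEURL1B at −1.23 on the left, and with FK866, DLL1 at 0.86 is the 1 filled point.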

How the data were processed

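RNA-seq was performed on total RNA depleted of ribosomal RNA from 12 libraries of KP4 cells, 3 per group. As the methods describe, the authors trimmed paired reads with cutadapt (minimum length 20, quality cutoff 20), aligned them to hg38 with RNA STAR, counted them per gene with featureCounts (-p -B) and normalized the counts with DESeq2. The gene annotation and the strand setting are not given in the sources used here. The deposited values are a signal, gene counts divided by a size factor per library, and in all libraries 100% of values gave whole reads within 0.01 when multiplied back. Groups were taken from the labels.

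Groups were compared with limma-trend (limma 3.58.1, R 4.3.3) as the main test, fitted to log2(normalized count + 1) of the 12 libraries together, and p-values were adjusted by Benjamini-Hochberg over 15376 genes whose mean reached 10. Fold changes are on this scale, which understates those of low genes. Calls needed an adjusted p under 0.05 and a fold change over 1.5. A count test is not the main test because the values are normalized, and edgeR 4.0.16 and DESeq2 1.42.0 on the recovered reads were alternatives. The others were pseudocounts of 0.1 and 10, 2 other filters, TMM and same-total scaling, the 6 compared libraries alone, the adjusted p alone, each library left out, removal of a loess trend on GC content and transcript length (GENCODE 44, 99.7% of tested genes) and the replicate number as a block.

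Deviations from group means of same-numbered libraries correlated above 0.1 in all 3 pairs for FK and DMSO (0.252, 0.420 and 0.219) and for Met+FK and Met (0.171, 0.200 and 0.226), which by that rule pairs them, but not for the other comparisons, where the lowest correlations were 0.0129 to 0.0510. With the GC and length trend removed, FK and DMSO still met the rule (0.136, 0.171 and 0.131). Met and FK then met it too (0.117, 0.144 and 0.122), whereas Met+FK and Met did not (0.159, 0.0964 and 0.0738). The labels give no meaning to the replicate numbers.

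The 10 genes and the lists (55 other pathway genes, and markers of ductal and epithelial, mesenchymal, acinar, endocrine, fibroblast, endothelial and immune cells) were chosen with earlier results of these data known. Named from the pathway list were the 3 largest and 3 smallest log2 fold changes among called genes with a mean of at least 50, for Met and for FK against DMSO, and RBPJ, ADAM10, NCSTN and MAML1. Some genes of the lists are not reported here. Other names were chosen after their values were seen. Likeness to HES1 was Pearson's r over the 12 libraries among genes with a mean of at least 100. Gene positions are those deposited, on hg38, with 1 added to each start, because 89.1% of starts then equal those of GENCODE 44, against 0.346% as deposited. Motifs were searched on both strands of the 250 bases before each RefSeq start, with HEY1 left out of the genes described. The depth limits precision mainly for HEY1 and NOTCH3.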

Additional observations from a re-analysis of the deposited data

Results flagged for a closer look

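HES7, a HES family repressor from the pathway list, was picked out because every library moved in opposite directions with FK866 without and with metformin. Its normalized counts were 238, 238 and 232 in DMSO and 209, 185 and 219 in FK, all lower. They were 175, 205 and 196 in Met and 214, 227 and 212 in Met+FK, all higher. The difference between the effects of FK866 with and without metformin was 0.39 on the log2 scale (95% interval 0.07 to 0.72), which did not pass the test (adjusted p = 0.119 from limma-trend). With the GC and length trend removed, HES7 had a log2 difference of 0.05 without metformin and 0.12 with it, and the difference between them was 0.07 (95% interval −0.22 to 0.37).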

How the results depend on the processing

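Over 59 results on single genes and 1416 alternative values, 15 lost and 3 gained a call, and 6 differences with no test moved by more than the spread between replicates. Calls in Met+FK against Met, among them that of HES1, were not tallied. Another sign was seen in 74 of these values, over 21 results, and 0 of these results had an adjusted p under 0.05 (HES1 in Met against DMSO, for example, went from −0.09 to 0.03 with all libraries scaled to the same total). Among the genes called higher in Met against DMSO, 2 in place of 1 were called with all libraries scaled to the same total, with the GC and length trend removed (without and with the replicate block) and with the adjusted p alone, HES4 being the addition. In FK against DMSO the adjusted p alone gave 2 in place of 1, JAG1 being the addition. In Met against FK, 1 in place of 2 was called higher with a pseudocount of 10 and with the GC and length trend removed (without and with the block), and 1 to 2 with 1 library left out, 1 without Met replicate 1, FK replicate 1 or FK replicate 2. With the adjusted p alone, the pathway list had 24 genes in Met against DMSO (6 when the fold change counts too). It had 10 in FK against DMSO (1) and 18 in Met against FK (8). In Met+FK it had 27 against DMSO (8) and 21 against FK (9). The adjusted p alone passed 3834 of all 15376 genes higher and 3989 lower in Met against DMSO. It passed 1738 and 1513 in FK against DMSO and 2643 and 2995 in Met against FK. For Met+FK it passed 4015 and 4018 against DMSO and 3149 and 3329 against FK. The 8 calls in Met against FK were 5 higher and 3 lower (10.2% and 6.12% of the list, beside 8.08% and 7.03% of all genes).

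The 1 call in the pathway list for FK against DMSO became 0 with all genes above 0 or the 6 libraries alone, and 2 (DLL1 and MFNG) with the GC and length trend removed, without and with the block. With 1 library left out it ranged from 0 to 2. It was 0 without DMSO replicate 1, DMSO replicate 3, FK replicate 2 or FK replicate 3, and 2 (ADAM10 and MIB1) without DMSO replicate 2 or FK replicate 1. Of all 15376 genes, those last 2 fits called 1065 and 955 higher and 137 and 198 lower. The fits that gave 0 called, in the order named, 84, 148, 87 and 555 of all genes higher and 10, 33, 13 and 117 lower. Under the replicate block, 1 of the 10 genes, JAG1, passed the test of the difference between the effects of FK866 with and without metformin. This held without and with the GC correction, against 0 in the fit without the block. Of all 15376 genes, 4914 passed that test under the block. With the GC and length trend also removed, 2.92% of all genes passed. The pairing changed no call of the 10 genes in FK against DMSO. With the same total per library, the median over all genes in Met against DMSO went from 0.01 to 0.13 in log2 units, and NRARP, JAG2 and LFNG stayed below and HES4 and HEY1 above that shift. The number of all genes called higher in FK against DMSO ranged from 84 (without DMSO replicate 1) to 1065 (without DMSO replicate 2), so the share of genes called in that comparison varied with single libraries. The causes were not tested.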
